A study of Saccharomyces cerevisiae with 15 samples.

Results

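The genes of the proteasome were followed in young and old budding yeast, Saccharomyces cerevisiae, as mRNA and as ribosome footprints. The set holds 38 of the 7127 gene identifiers counted in every library and was listed by gene name, not by a threshold on a measured value. It comprises 7 alpha-ring and 7 beta-ring genes of the core particle, 6 ATPase and 4 other genes of the base, 9 genes of the lid, and 5 regulators: the transcription factor gene RPN4, the assembly factor gene UMP1, the alternative activator gene BLM10, and the genes of the associated proteins Ecm29 and Ubp6. The study compared wild type with cth2Δ, a strain that lacks TIS11 (also called CTH2), the gene of an RNA-binding protein that acts on AU-rich mRNAs, at 2 h (young) and 30 h (old). The 15 libraries form 8 groups of strain, age and assay with 2 libraries each, except mRNA of old cth2Δ cells, which has 1. Both strains were of the Mother Enrichment Program background UCC8773, in which estradiol added to the medium keeps newly born daughters from dividing. Every group had the same treatment: growth in rich medium with estradiol after a preculture with nourseothricin and hygromycin B, surface labelling with biotin, and capture of the labelled mothers on magnetic beads. Daughters of the labelled cells remain in the culture until that capture. Lysates were made with cycloheximide, footprints were cut with RNase I and taken from the monosome fraction, and mRNA was selected by its poly(A) tail and fragmented from another aliquot of the lysate.

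The proteasome is the barrel-shaped protease that degrades ubiquitin-tagged proteins in the cytosol and nucleus of yeast. Alpha rings gate the barrel, beta rings carry its active sites, the ATPases of the base unfold the substrate and feed it in, and the lid removes the ubiquitin chain. Rpn4 activates most proteasome genes through an element shared by their promoters and is itself degraded within minutes by the proteasome it makes, which gives the system a feedback loop. In yeast, proteasome capacity set through Rpn4 is known to influence how many daughters a mother can produce.

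The shared promoter element, GGTGGCAAA, is shown first because it is what most of these genes have in common beyond their products. It was searched on both strands from 250 bases before to 50 bases after the start codon in the R64 genome. It occurred in the windows of 28 of the 38 genes, 27 of them among the 33 subunit genes, against 0.738% of the 5963 other protein-coding genes. The windows below are from RefSeq R64, read 5′ to 3′ on the strand of the gene, with the element in capitals. They show the gene with the lowest identifier in each structural class that holds the element, and then PRE2 and RPT6, whose values are described later.
SCL1 (YGL011C), alpha ring, chrVII:475336-475365, minus strand: cacacaccaaTTTGCCACCgtaaggataga
PRE7 (YBL041W), beta ring, chrII:141150-141179, plus strand: aaactcaaagGGTGGCAAAaacaagcggta
RPT2 (YDL007W), base ATPase, chrIV:437906-437935, plus strand: gtttttctccGGTGGCAAAtgtctcttttc
RPN1 (YHR027C), base, chrVIII:164837-164866, minus strand: tgtgttttacGGTGGCAAAaggcgagcacg
RPN6 (YDL097C), lid, chrIV:286789-286818, minus strand: tggttccaagGGTGGCAAAtgttggtagaa
ECM29 (YHL030W), regulator, chrVIII:39943-39972, plus strand: gccttttcttGGTGGCAAAaaaaaggtact
PRE2 (YPR103W), beta ring, chrXVI:732184-732213, plus strand: acagcaaaagGGTGGCAAAacgaagaatag
RPT6 (YGL048C), base ATPase, chrVII:411351-411380, minus strand: atgcgagcgaGGTGGCAAAagttgtaatat

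In SCL1 the element reads in the reverse orientation, and in the other 7 it reads forward. Over all 28 genes it was forward in 20 and reverse in 8, and no gene held it more than 1 time. Its first base lay 84 to 183 bases before the start codon, with a median of 122. The 10 genes without these letters in the window were PRE5, PUP1, RPN8, RPN10, RPN13, SEM1, RPN4, BLM10, UBP6 and UMP1. The shorter core TGGCAAA, which the full element contains, was present in 32 of the 38 and in 6.81% of other promoters, and it added PRE5, PUP1, RPN8 and UBP6. In the same windows, elements of regulators that act on RPN4 itself were not shared in this way. Only 1 form of each was searched, so sites further upstream or in other forms would be missed, also for RPN4. The Pdr1/Pdr3 element TCCGCGGA was found in RPN11 (0.201% of other promoters), the Yap1 element TTACTAA in 4 genes (7.43%) and the stress element AGGGG in 8 (21.6%). The gapped heat-shock element, also searched on both strands, was found in RPN4 (0.771% of other promoters), 21 bases before the start codon, and is shown in capitals because RPN4 was the only gene of the set with a match.
RPN4 (YDL020C), regulator, chrIV:416708-416737, minus strand: caaaagttTTCTAGAATTTTCaagcaatca

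**Figure D1:**
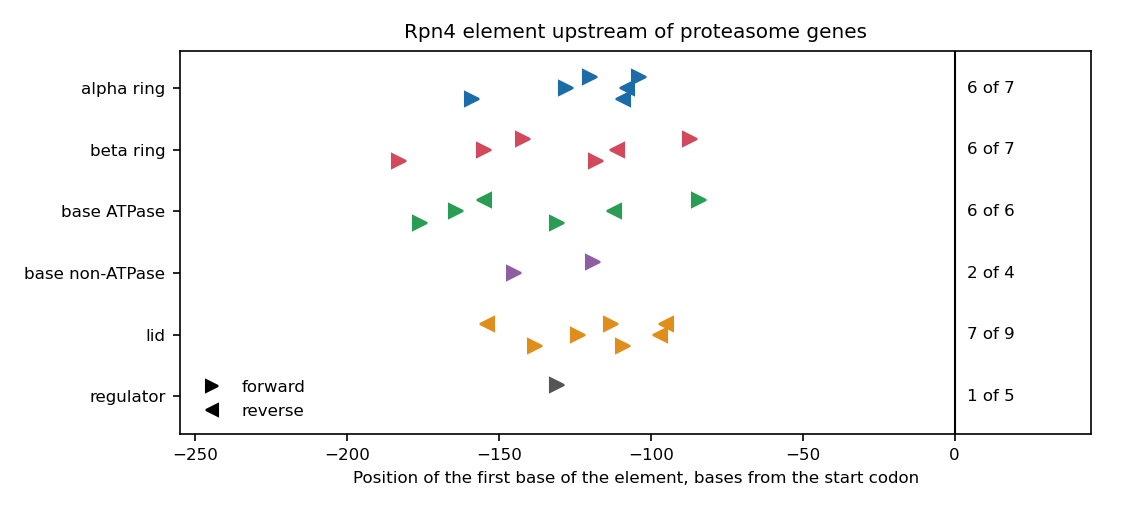
Position of GGTGGCAAA upstream of the start codon (x axis, bases) in each structural class (rows), with the triangle pointing right for the forward and left for the reverse orientation and the number of genes holding it at the right. The 28 elements lie between 84 and 183 bases before the start codon, in every ATPase gene of the base and in 1 of the 5 regulators.

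All 38 genes were counted well in every library. Libraries held 1629345 to 6198680 counts, of which the 38 genes took 0.973% to 1.17%, and the lowest count of any of them was 154. A count of 3, the least taken as detectable, corresponds to 0.484 to 1.84 CPM, the unit of library-scaled counts used throughout, and covers counting error only. No gene of the set overlaps another annotated gene or has a near-identical copy in R64 (identity of 90% over 50% of the length), and they lie on 13 chromosomes. TIS11 mRNA identified the strains: it was at 6.41 and 10.0 CPM in young and 68.0 and 78.8 CPM in old wild type, at 0.318 and 0.619 CPM in young and at 3.52 CPM in old cth2Δ. The young replicates of each strain stood apart from each other. The summed level of 8 stress and glucose-repressed genes was 14663 CPM in replicate 1 and 4578 CPM in replicate 2 of young wild-type mRNA, and 5113 and 13424 CPM in replicates 1 and 2 of young cth2Δ mRNA. It was 4231 to 4272 CPM in old wild-type mRNA and 2811 CPM in old cth2Δ mRNA. In the footprints it was 26788 and 8189 CPM in young wild type, 8846 and 28641 CPM in young cth2Δ, and 4574 to 7654 CPM in old cells. Every one of the 8 genes was detected in every library, with 87 counts or more. Whether this state of the young cultures takes part in the differences below was not tested, and the main counts with age and between young strains are also given without young libraries. These were bulk samples, so fewer cells expressing a gene and less RNA per cell cannot be told apart. The labels do not say that replicates came from separate cultures, so the p-values measure the spread between the labelled samples.

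Per kilobase of gene, the highest of the 33 subunit genes was 6.31 and 4.51 times the lowest in mRNA of young wild-type replicates 1 and 2. In footprints it was 2.83 and 2.90 times the lowest. Among the 33 genes, the median mRNA level was 350.4 and 310.2 CPM per kilobase in replicates 1 and 2, and the median footprint level was 339.5 and 319 CPM per kilobase. In mRNA the highest were SEM1, the gene of a small acidic lid protein, at 739 ± 240 CPM per kilobase (SD, n = 2), and PRE9, an alpha-ring gene, at 699 ± 18.1. These levels differed by less than the spread of SEM1. PRE2, whose product carries the chymotrypsin-like active site, followed at 543 ± 11.2 CPM per kilobase, and PUP2 of the alpha ring, at 523 ± 65.3, did not differ from PRE2 beyond the spread. The lowest subunit gene was RPN1, the large scaffold of the base, at 148 ± 5.78. The 3 lowest of all 38 genes were regulators: RPN4 at 56.8 ± 2.36, BLM10 at 29.4 ± 1.76 and ECM29 at 24.2 ± 3.74 CPM per kilobase.

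Footprint levels of the subunit genes were closer to each other than their mRNA levels were. The coefficient of variation across the 33 genes was 24.6% to 27.9% over the 8 footprint libraries and 35.1% to 43.5% over the 7 mRNA libraries, so the ranges did not overlap. The alpha ring had footprint and mRNA ranges that did not overlap either. Its coefficient of variation was 4.15% to 8.21% in the footprint libraries and 14.1% to 29.8% in the mRNA libraries. PRE9 was the highest gene of this ring in every mRNA library. In the other 4 structural classes the ranges overlapped. They were 13.8% to 24.4% for footprints and 10.4% to 22.0% for mRNA in the beta ring, 14.3% to 19.7% and 14.9% to 28.5% in the ATPases, 5.97% to 31.7% and 20.8% to 36.8% in the other base genes, and 23.8% to 43.5% and 40.6% to 66.2% in the lid. These coefficients are the same under any scaling of a library, and the listed length was used for both assays. PRE9 shows the pattern in a single gene: it ranked 2 of 38 in young wild-type mRNA, at 699 CPM per kilobase, and 20 of 38 in footprints, at 324 ± 6.25. RPN1 went the other way, from rank 35 in mRNA to rank 18 in footprints, at 330 ± 12.5 CPM per kilobase. As footprints per mRNA on the log2 scale, PRE9 was lowest, at −1.11 ± 0.07 (SD, n = 2), and RPN1 was highest, at 1.16 ± 0.0016, in young wild type.

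**Figure D2:**
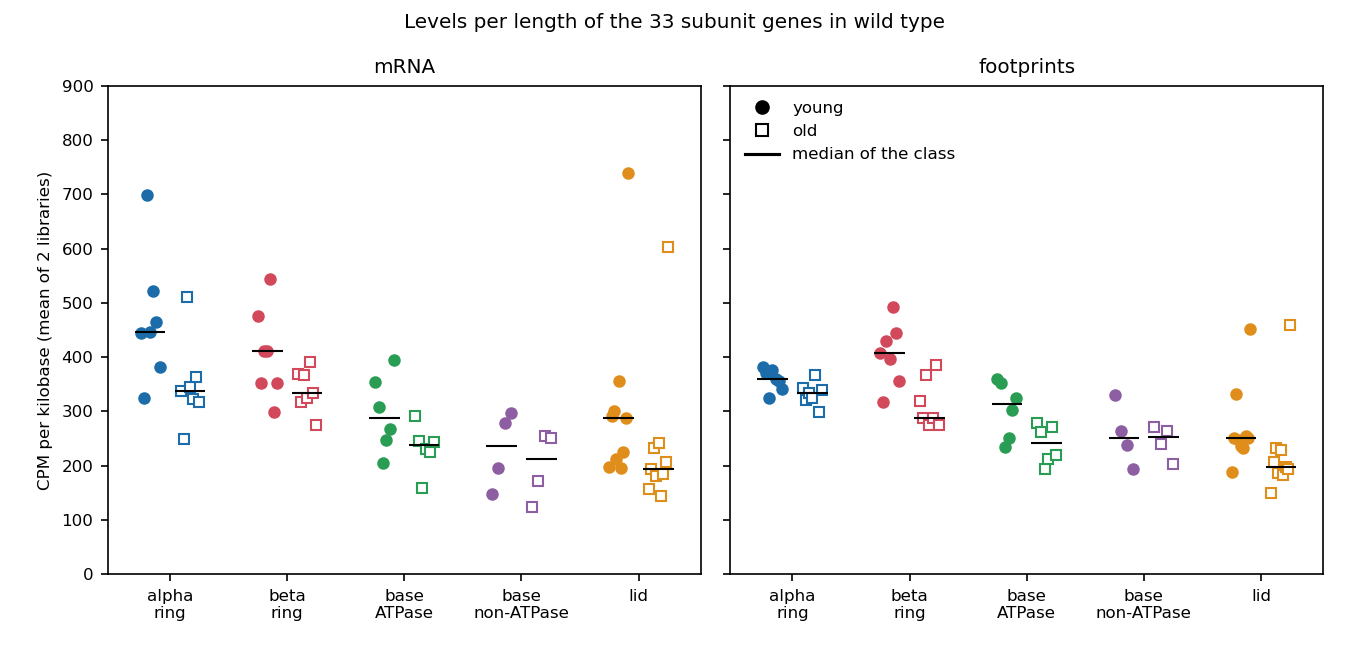
Level of each of the 33 subunit genes in wild type, as CPM per kilobase (y axis, mean of 2 libraries), by structural class (x axis), for mRNA at the left and footprints at the right, with filled circles for young cells, open squares for old cells and a line at the median of the class. The 7 alpha-ring genes are spread from 325 to 699 CPM per kilobase in young mRNA and from 324 to 382 in young footprints.

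RPN4, the gene of the transcription factor, lies at chromosome IV, 415113 to 416708, on the minus strand of R64, without an intron. Its mRNA was at 87.9 and 93.2 CPM in young and 94.0 and 101 CPM in old wild type, and at 72.4 and 94.6 CPM in young and 104 CPM in old cth2Δ. Every old value lay above the young ones of its strain, as in 30.1% of all genes for wild type. The nearest wild-type values, 93.2 and 94.0 CPM, differed by less than the replicates did, and cth2Δ has 1 old library. RPN4 footprints were at 112 and 67.4 CPM in young and 79.4 and 82.1 CPM in old wild type. In cth2Δ they were at 54.4 and 116 CPM in young and 94.0 and 80.5 CPM in old cells. The old footprint values thus lay between the young ones in each strain. The log2 fold change of old against young was 0.11 in wild-type mRNA (SE 0.20, edgeR adjusted p = 0.781), −0.15 in wild-type footprints (SE 0.37, adjusted p = 0.829) and 0.02 in cth2Δ footprints (SE 0.38, adjusted p = 0.977). Between the strains it was −0.12 in young mRNA (SE 0.20), −0.06 in young footprints (SE 0.37) and 0.11 in old footprints (SE 0.38), each with an edgeR adjusted p of 1.00. The higher young footprint value fell, in each strain, in the library with the higher sum of stress and glucose-repressed genes: replicate 1 of wild type exceeded replicate 2 by 0.72 on the log2 scale, and replicate 2 of cth2Δ exceeded replicate 1 by 1.08. In mRNA the same differences were −0.08 and 0.38. The footprint change with age in cth2Δ was −0.42 without young replicate 1 and 0.67 without young replicate 2, so its sign turned with the library left out.

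**Figure D3:**
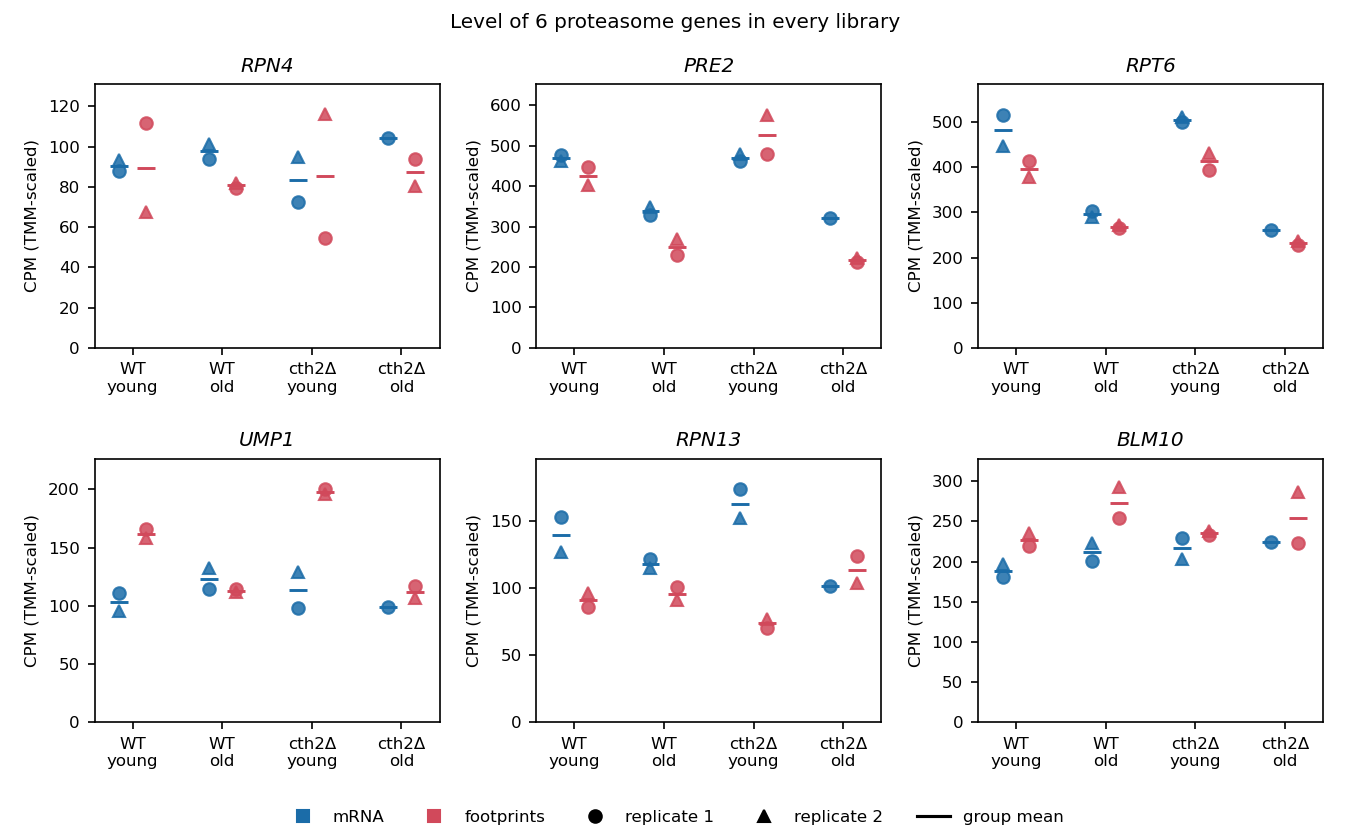
TMM-scaled CPM (y axis, from 0) of RPN4, PRE2, RPT6, UMP1, RPN13 and BLM10 in every library of the 4 groups (x axis), with mRNA in blue, footprints in red, circles for replicate 1, triangles for replicate 2 and a line at the group mean. PRE2 and RPT6 are lower in every old library than in any young one, and the young footprint values of RPN4 lie on either side of the old ones.

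In wild-type mRNA, 34 of the 38 genes had a lower fitted level in old than in young cells, where 50.4% of all 5991 genes tested did, although with library totals alone in place of TMM this count was 20. The median log2 fold change was −0.33 for the 38 genes and −0.005 for all genes. In 29 genes both old values lay below both young values, where 27.8% of all genes did so, and in 4 genes, PRE7, RPN4, BLM10 and UMP1, both lay above (30.1% of all genes). None of the 38 passed an adjusted p of 0.05 in edgeR, where 0.951% of all genes did. At an unadjusted p under 0.05, 6 were lower and 0 were higher (9.6% and 10.3% of all genes), and DESeq2 called 1 (4.34% of all genes). Library totals moved the median of all genes to 0.31 and that of the 38 genes to −0.01, and left the difference between them at −0.32, so changes are given relative to the median gene.

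RPT6, an ATPase gene of the base at chromosome VII, 410069 to 411286, had the lowest value. Its mRNA was at 517 and 447 CPM in young and 304 and 291 CPM in old wild type, a log2 fold change of −0.70 (SE 0.18, edgeR adjusted p = 0.143). DESeq2 gave an adjusted p of 0.0495 for it. PUP2 (YGR253C) of the alpha ring was at 445 and 373 CPM in young and 249 and 256 CPM in old cells (log2 fold change −0.70, SE 0.19, edgeR adjusted p = 0.145). Neither pair of groups overlapped. The highest value was that of UMP1 (YBR173C, chromosome II, 581726 to 582172), whose product helps the core particle to mature and is degraded once it has: 111 and 95.9 CPM in young and 114 and 132 CPM in old cells (0.25, SE 0.21, edgeR adjusted p = 0.527). By class, the median was −0.39 in the alpha ring, −0.34 in the beta ring, −0.31 in the ATPases, −0.21 in the other base genes and −0.36 in the lid, and 32 of the 33 subunit genes lay below 0, all but PRE7. The 5 regulators had a median of 0.11, with UBP6, the gene of a deubiquitinating enzyme, at −0.30 and ECM29 at −0.32. Without young replicate 1 the median of the 38 genes was −0.22 and 31 of them lay below 0, and without young replicate 2 it was −0.43. Of the 8 stress and glucose-repressed genes 7 lay below 0 in the same comparison (median −1.25), and of 10 daughter-cell genes 9 lay above it (median 0.33). Their part in the values of the proteasome genes was not tested.

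**Figure D4:**
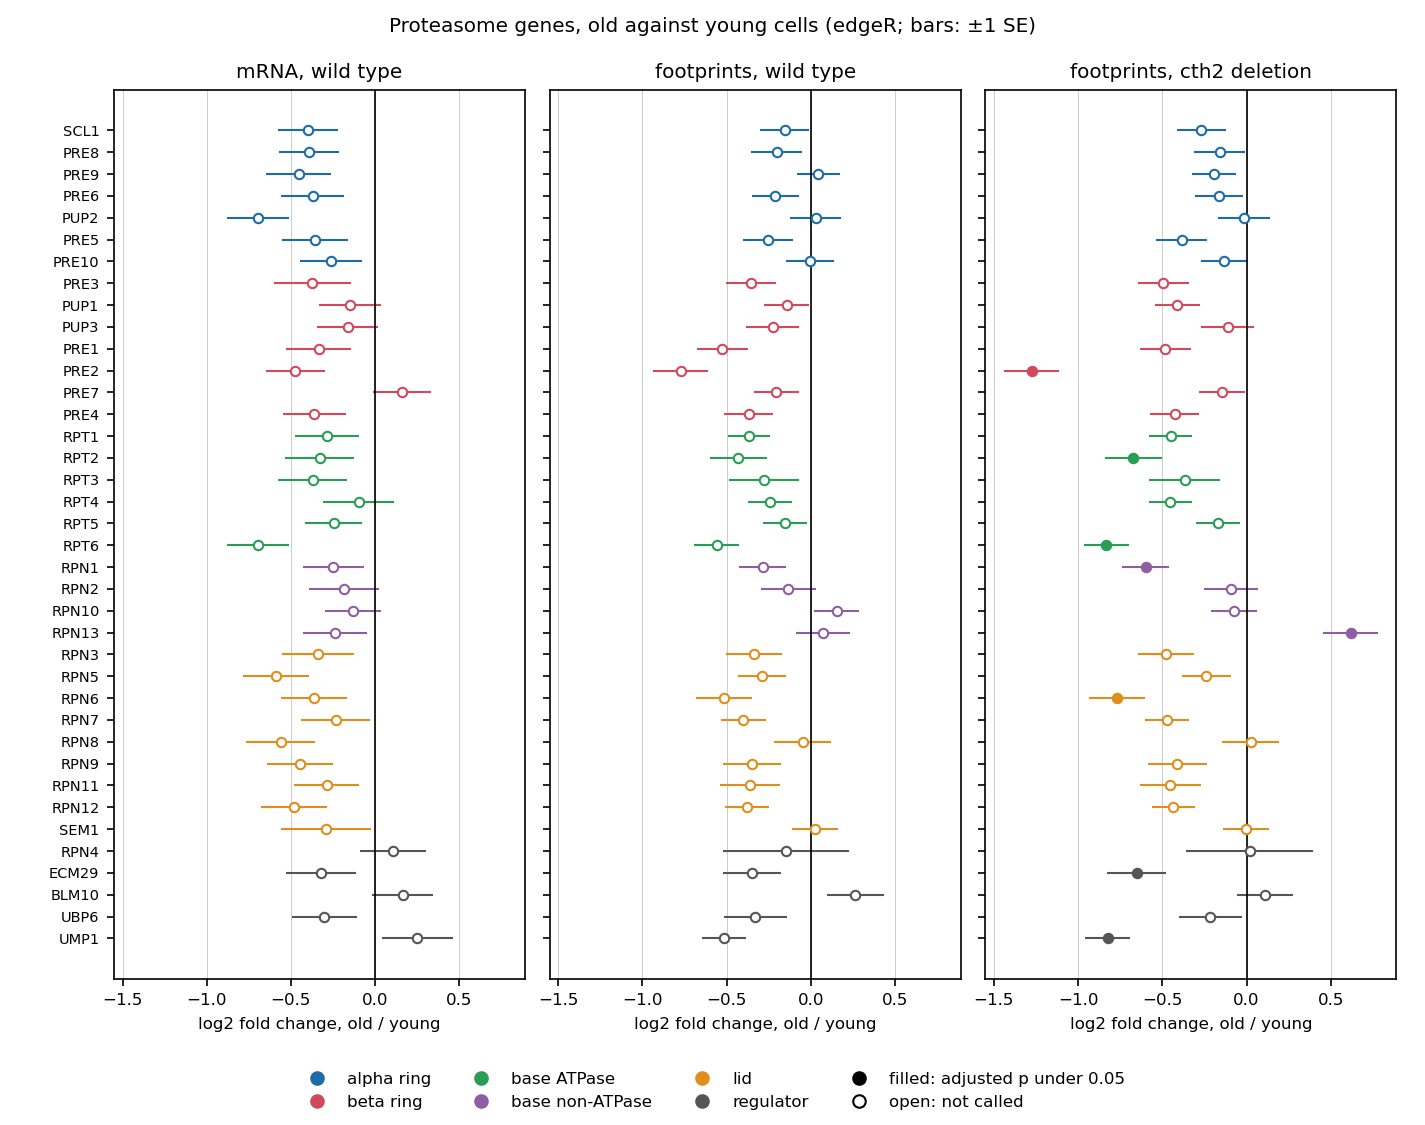
Log2 fold change of old against young (x axis) for each of the 38 genes (rows, coloured by class) in wild-type mRNA, wild-type footprints and cth2Δ footprints, with bars of 1 SE and filled points where the edgeR adjusted p is under 0.05. Most points lie to the left of 0 in all 3 panels, and filled points occur in cth2Δ footprints, 7 lower and 1 higher.

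In wild-type footprints, 32 of the 38 genes were lower in old cells (49.5% of all 5308 genes tested), or 14 with library totals alone. The median log2 fold change was −0.26, against 0.007 for all genes. Both old values lay below both young values in 26 genes (27.3% of all genes) and above them in 3, PRE9, RPN10 and BLM10 (30.7%). EdgeR called 0 of the 38, with 2.98% of all genes called, 11 were lower at an unadjusted p under 0.05 (10.5% of all genes) and 0 were higher (12.5%). DESeq2 called 2, PRE2 and RPT6, with 5.95% of all genes. With library totals the median of all genes was 0.34 and that of the 38 genes 0.08, a difference of −0.27.

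PRE2 (chromosome XVI, 732349 to 733212) of the active-site ring had the lowest footprint value. It was at 447 and 403 CPM in young and 229 and 268 CPM in old wild type, a log2 fold change of −0.77 (SE 0.16, edgeR adjusted p = 0.0552). RPT6 followed at 414 and 378 CPM in young and 266 and 271 CPM in old cells (−0.56, SE 0.13, edgeR adjusted p = 0.0764). BLM10 (YFL007W, chromosome VI, 123479 to 129910), the gene of an activator that caps the core particle in place of the base and lid, was highest, at 219 and 236 CPM in young and 254 and 293 CPM in old cells (0.27, SE 0.17, edgeR adjusted p = 0.363). The class medians were −0.16 in the alpha ring, −0.35 in the beta ring, −0.32 in the ATPases, −0.03 in the other base genes and −0.35 in the lid. All 7 beta-ring and all 6 ATPase genes lay below 0, with 5 of 7 in the alpha ring. Without young replicate 1 the median of the 38 genes was −0.16, and without young replicate 2 it was −0.34.

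Relative to mRNA, the footprints of the proteasome genes changed with age in wild type no more at the median than those of all genes. With libraries paired by number as lysates, 4 of the 38 genes were called, where 6.79% of all genes were. The ratio of footprints to mRNA, the translational efficiency, was tested in a model of all 15 libraries as the difference between the assays in their response to age, with 6050 genes. The median log2 change of the 38 genes was 0.05, as was that of all genes, and 23 of 38 lay above 0 (54.7% of all genes). That count turned with single libraries: it was 27 without young footprint replicate 1, 14 without young footprint replicate 2, 15 without young mRNA replicate 1 and 25 without young mRNA replicate 2. Without a block, edgeR called 0 of the 38 (0.0661% of all genes), with 3 higher and 1 lower at an unadjusted p under 0.05 (4.46% and 2.31%), and DESeq2 called 0 (0.331%). The labels state that both assays came from aliquots of the same lysate, but not which libraries pair, so pairs were taken by number. With the lysate paired in this way as a block, edgeR called 4 of the 38, where 6.79% of all genes were called. PUP2 was highest at 0.74 (SE 0.21, adjusted p = 0.489; 0.000876 with the lysate block). Its mRNA was lower in old cells, as given above, and its footprints were at 309 and 255 CPM in young and 274 and 301 CPM in old cells, which overlap. UMP1 was lowest at −0.75 (SE 0.23, adjusted p = 0.571; 0.00457 with the block): its mRNA values were higher in old cells, and its footprints were at 166 and 158 CPM in young and 114 and 112 CPM in old cells. The other called genes under the block were PRE9 (YGR135W) at 0.52 (edgeR adjusted p = 0.0340) and RPN8 (YOR261C), the gene of the lid protein that pairs with the deubiquitinase Rpn11, at 0.53 (adjusted p = 0.0254). All 7 alpha-ring genes lay above 0, from 0.12 to 0.74, and the 7 beta-ring genes ranged from −0.35 to 0.04. RPN4 was at −0.23 (SE 0.43, edgeR adjusted p = 1.00).

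**Figure D5:**
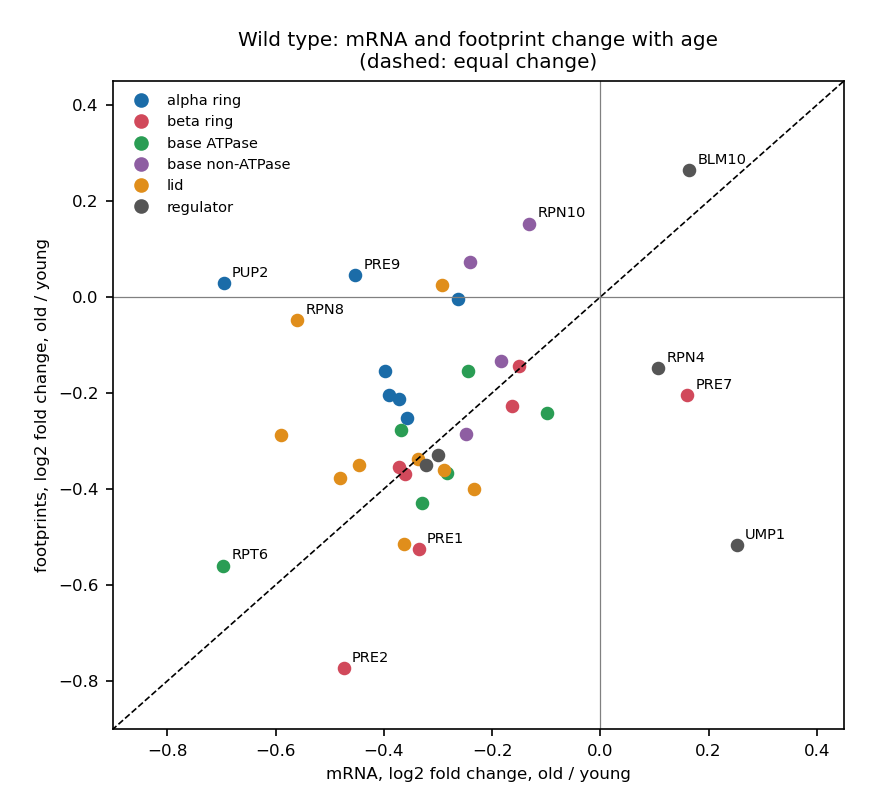
Log2 fold change of old against young in wild type for each of the 38 genes, in mRNA (x axis) and in footprints (y axis), coloured by class, with the dashed line marking equal change. PUP2, PRE9 and RPN8 lie above the line and UMP1 lies below it, at 0.25 in mRNA and −0.52 in footprints.

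In cth2Δ footprints, 8 of the 38 genes passed the test with age, where 17.2% of all genes did, so the share called was close to the background. Of the 38, 7 fell (8.06% of all genes called lower) and 1 rose (9.16% called higher). With library totals alone 4 were called, 1 lower and 3 higher, and 34.4% of all genes. The median log2 fold change was −0.38, against −0.0002 for all genes, and 34 of 38 lay below 0 (50% of all genes), or 11 with library totals, which placed the median of all genes at 0.46 and left the 38 genes 0.38 below it. Both old values lay below both young values in 28 genes (31.9% of all genes) and above them in 1 (33.4%).

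PRE2 fell furthest. Its footprints were at 478 and 575 CPM in young and 212 and 223 CPM in old cth2Δ cells, a 2.42-fold fall (log2 fold change −1.28, SE 0.16, edgeR adjusted p = 0.00674). RPT6 fell from 395 and 432 to 227 and 237 CPM (−0.83, SE 0.13, edgeR adjusted p = 0.0129). UMP1, which acts on the same maturing core particles as the Pre2 precursor, fell from 200.5 and 196 to 117 and 107 CPM (−0.82, SE 0.13, edgeR adjusted p = 0.0129). RPN6, the gene of a lid protein that braces lid, base and core against each other, fell from 444 and 499 to 302 and 252 CPM (−0.77, SE 0.17, edgeR adjusted p = 0.0268). RPT2, of the ATPase that opens the gate of the core, fell from 446 and 554 to 305 and 323 CPM (−0.67, SE 0.17, edgeR adjusted p = 0.0393). In these 5 genes every old value lay below every young value. ECM29, of a protein that holds core and regulatory particle together, fell by 0.65 on the log2 scale (SE 0.17, edgeR adjusted p = 0.0434), and RPN1 fell by 0.60 (SE 0.14, edgeR adjusted p = 0.0322).

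RPN13 (YLR421C, chromosome XII, 965090 to 965560), the gene of a ubiquitin receptor of the base, was the only gene of the set called higher with TMM scaling, while library totals also placed BLM10 and SEM1 there. Its footprints were at 70.7 and 77.1 CPM in young and 124 and 104 CPM in old cth2Δ cells (0.62, SE 0.16, edgeR adjusted p = 0.0420). In wild type its footprints were at 86.0 and 96.6 CPM in young and 101 and 91.0 CPM in old cells, which overlap. Its promoter window holds neither the full element nor its core. The class medians were −0.16 in the alpha ring, −0.43 in the beta ring, −0.45 in the ATPases, −0.08 in the other base genes and −0.43 in the lid.

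Of these 8 calls, fewer held when libraries were left out. EdgeR called 0 of the 38 without old cth2Δ replicate 1 (1.06% of all genes) and 0 without old replicate 2 (0.857%), with 11 and 9 at an unadjusted p under 0.05 (22.7% and 21.9% of all genes). It called 3, PRE2, RPT6 and UMP1, without young cth2Δ replicate 2 (7% of all genes), and 8 without young replicate 1 (22.4%), 7 of them in common with the full set. The direction of each of the 8 genes was kept in all 4 of these fits. DESeq2 called 11, including all 8 (17.6% of all genes), and edgeR called 1, PRE2, with the other groups left out of the fit (3.16%). The summed level of 10 daughter-cell genes moved with age in the same libraries: it was 2595 and 2147 CPM in young and 851 and 1001 CPM in old cth2Δ footprints, against 1628 and 2274 CPM in young and 1845 and 1977 CPM in old wild-type footprints. With TMM all 10 lay below 0 in cth2Δ, with a median of −1.15, and 6 of them were called lower. None was at 0 in any library. Their part in the changes of the proteasome genes was not tested.

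The strains were compared directly to ask whether loss of Cth2 changed the proteasome genes. EdgeR and DESeq2 called 0 of the 38 in young mRNA, in young footprints and in old footprints, and 0 reached an unadjusted p under 0.05 in edgeR in any of the 3, where 1.65%, 1.73% and 5.09% of all genes did. EdgeR called 0% of all genes in each, and DESeq2 called 0%, 0.0188% and 0.414%. With only the groups compared, edgeR called 6.15% of all genes in old footprints and 0% in both young comparisons. In that fit of old footprints 0 of the 38 were called, and 2 were at an unadjusted p under 0.05 (18.4% of all genes). In young mRNA, 33 of 38 lay above 0 (51.8% of all genes), or 28 with library totals, with a median of 0.09, and in 11 both cth2Δ values lay above both wild-type values (8.9% of all genes) and in 0 below (10.4%). The number above 0 ranged from 22 to 35 when each library was left out in turn. The highest was PRE10 (YOR362C) of the alpha ring, at 349.8 and 311 CPM in wild type and 400.2 and 384 CPM in cth2Δ (0.25, SE 0.18, edgeR adjusted p = 1.00), and the lowest was RPN4. In young footprints the median was 0.02, and both values lay above in PRE2, RPT1, RPT4 and UMP1 (11% of all genes) and below in 1 gene, RPN13 (9.1%). The number above 0 was 34 without wild-type replicate 1, 14 without wild-type replicate 2, 30 without cth2Δ replicate 1 and 13 without cth2Δ replicate 2, so its direction rests on single libraries. PRE2 was highest at 0.31 (SE 0.16) and RPN13 lowest at −0.30 (SE 0.16), with an edgeR adjusted p of 1.00 each.

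In old footprints 28 of 38 lay below 0 (49.1% of all genes), with a median of −0.06, or 18 with library totals. Both cth2Δ values lay below both wild-type values in 14 genes (23.6% of all genes) and above in 4, RPN5, RPN13, SEM1 and UBP6 (24.5%). RPN1 was lowest, at 779.6 and 836 CPM in wild type and 650.2 and 716 CPM in cth2Δ (−0.24, SE 0.14), and RPN13 was highest at 0.24 (SE 0.16), each with an edgeR adjusted p of 1.00. The 10 daughter-cell genes all lay below 0 in this comparison, with a median of −1.01 and 9 lower at an unadjusted p under 0.05 in edgeR. Their part in these values was not tested either. Tested directly, the age response of footprints differed between the strains in 0 of the 38 genes by edgeR (0% of all genes called) and by DESeq2 (0.0754%). RPN13 was the single gene of the set at an unadjusted p under 0.05 (2.86% of all genes), with a difference of 0.55 (SE 0.23, edgeR adjusted p = 1.00), and PRE2 was lowest at −0.50 (SE 0.23, edgeR adjusted p = 1.00). The 8 calls in cth2Δ and 0 in wild type are therefore not shown to be a difference between the strains. For translational efficiency in young cells, edgeR and DESeq2 called 0 of the 38 (0% of all genes), with RPN13 lowest at −0.55 (SE 0.23, edgeR adjusted p = 1.00), the only one at an unadjusted p under 0.05 (1.77% of all genes), and PRE2 highest at 0.28 (SE 0.21).

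The single mRNA library of old cth2Δ cells allows a description with no test. Against young cth2Δ mRNA the median log2 difference of the 38 genes was −0.49, against 0.05 for all 6072 genes compared, and 32 lay below both young values, as did 36.8% of all genes. RPT6 was at 260 CPM, against 500.2 and 512 CPM in young cells, a log2 difference of −0.96. PRE9 was at 317 CPM, against 644 and 528 CPM (−0.88). RPN13, whose footprints rose in the same strain, was lower in mRNA: 101 CPM in old and 174 and 152 CPM in young cells (−0.68). Against old wild type the median was −0.10, with 21 of the 38 below both wild-type values (38.9% of all genes).

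The genes with the Rpn4 element and those without it are set side by side as a description. In wild-type mRNA the 28 genes with the element had a median log2 fold change with age of −0.35, with 27 below 0, and the 10 without it −0.19, with 7 below 0. In wild-type footprints the medians were −0.31 and −0.10. In cth2Δ footprints they were −0.43 and −0.04, and all 28 genes with the element lay below 0, as did 6 of the 10 without it. The genes without it include 4 of the 5 regulators, so element and function overlap in these groups. They also include PRE5, PUP1, RPN8 and UBP6, which hold the shorter core TGGCAAA.

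The subunit genes also followed each other across libraries. With levels centred within each assay, the correlation of a subunit gene with the mean of the other subunit genes over the 15 libraries had a median of 0.873 and ran from 0.120 for RPN13 to 0.964 for RPT6. Of the 33, 17 were above 0.868, the 95th percentile of 5080 genes at a mean of 10 CPM or more. PRE7, at 0.217, was the next lowest, and RPN4 and BLM10 were at −0.05 and −0.43. The 10 other genes most like the subunits were RAS2 (0.987), ADD66 (0.986), YPC1, END3, CDC48 (0.963), YGR111W, ALE1, HEM15, TDA10 and RFS1. Of these, only ADD66 and CDC48 are on the list of further ubiquitin-proteasome genes described below. ADD66 encodes a chaperone that helps to assemble the alpha ring, and CDC48 the ATPase that extracts ubiquitin-tagged proteins from complexes and membranes. These values are descriptive, since the libraries share their strains, ages and lysates.

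The rest of the ubiquitin-proteasome system was described with a list of 38 further genes. In wild-type mRNA 27 lay below 0 with a median of −0.20, and the lowest edgeR adjusted p was 0.0927, that of SPG5 at 1.11. Among them, 9 of 10 assembly chaperone genes lay below 0 (median −0.42), with HSM3, of a chaperone of the base, at −0.66 (SE 0.17, edgeR adjusted p = 0.143). The 4 ubiquitin genes had a median of −0.68. Of these, 3 encode fusions with ribosomal proteins (RPL40A, RPL40B and RPS31), and the polyubiquitin gene UBI4 was at −0.29 (SE 0.54). RPL40A and RPL40B encode the same protein, so their counts may be split between them. All 4 genes of the factors that act on RPN4 transcription lay above 0, from 0.29 for PDR1 to 0.51 for HSF1 (SE 0.22, edgeR adjusted p = 0.253).

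In wild-type footprints 1 of the 38 further genes was called, against 2.98% of all genes. This was SPG5, of a protein that binds the proteasome in stationary phase, which rose by 1.34 (SE 0.23, edgeR adjusted p = 0.0350). In cth2Δ footprints 7 were called, against 17.2% of all genes. SPG5 rose by 1.35 (adjusted p = 0.0154), POC4, of an assembly chaperone of the alpha ring, by 0.91 (adjusted p = 0.0291) and UFD4, of a ubiquitin ligase, by 0.77 (adjusted p = 0.0252), all in edgeR. UBC4, the gene of a main ubiquitin-conjugating enzyme, fell by 1.01 (SE 0.15, edgeR adjusted p = 0.0102). NAS2, of a base chaperone, fell by 1.29, DSK2, of a shuttle that brings ubiquitin chains to the proteasome, by 0.74 and SHP1, of a Cdc48 cofactor, by 0.59.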

How the data were processed

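mRNA and ribosome footprints were sequenced from purified mothers. The authors deposited raw counts per gene in each library, and no normalized values were used. Per the submitters' processing notes, cutadapt 3.4, Bowtie 1.1.2 and STAR 2.7.9a were used with genome build R64. The counting program and its use of strand are not given in the sources used here.

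Libraries were grouped by the labels. Counts were scaled with TMM and tested with edgeR 4.0.16 in R 4.3.3 (robust quasi-likelihood test, 1 mean per group, genes kept by filterByExpr), separately for the 7 mRNA libraries (5991 genes) and the 8 footprint libraries (5308 genes). All 38 genes passed this filter. Translational efficiency was tested in a fit of all 15 libraries, as the difference between the assays in the effect of age or of strain. Benjamini-Hochberg adjustment ran over all genes, with calls made below 0.05. SEs of log2 fold changes were derived from the F statistics. CPM per kilobase used the length listed in the deposited files. The code was tested on simulated data. Replicates differed by more than sampling noise. All values come from 1629345 to 6198680 counts per library.

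The genes and lists were chosen with earlier results of these data known. Named genes were RPN4, those called in any comparison, and the highest and lowest value of each comparison, and others named were chosen after their values were seen. PRE2 and RPT6 were added to the promoter windows for the same reason. Same-numbered mRNA and footprint libraries deviated together in young cells (r = 0.713 in wild type and 0.771 in cth2Δ), and less so in old wild type (r = 0.128). The labels state that both assays used aliquots of a lysate, but not that same-numbered libraries share one. The lysate block for translational efficiency therefore rests on pairing by number. For the other comparisons the labels give only a shared number. Alternatives were DESeq2 1.42.0, RLE and library-total scaling, no filter, only the groups compared, a replicate block and leaving out each library.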

Additional observations from a re-analysis of the deposited data

How the results depend on the processing

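Of the main counts and medians, 200 values under the alternatives stayed close to those reported and 20 moved. DESeq2 called 1 of the 38 genes in wild-type mRNA and 2 in wild-type footprints with age. Library-total scaling called 4 in cth2Δ footprints and placed the median log2 fold change of the 38 genes at −0.0069 in wild-type mRNA, 0.076 in wild-type footprints, 0.087 in cth2Δ footprints, 0.0085 between strains in old footprints and 0.037 for the strain difference in the age response. In cth2Δ footprints with age, edgeR called 1 with only the groups compared, and leaving out each library gave 0 to 8 calls and medians of −0.43 to −0.25. The replicate block gave 3 calls there (4.75% of all genes) and, as the lysate block, 4 for translational efficiency with age, and it changed no other count of calls among the 38 genes. Same-numbered young libraries of the 2 strains deviated in opposite directions (r = −0.717 in mRNA and −0.857 in footprints). A block with the numbers crossed, chosen with results known, called 21 in wild-type mRNA (35.9% of all genes), 25 in wild-type footprints (46%) and 25 in cth2Δ footprints (55.7%) with age, 1 for the strain difference in the age response (3.49%) and 3 for translational efficiency (3.9%). This block was set in young libraries only. With age, old cells were thus compared with the fitted young level of wild-type replicate 1 or cth2Δ replicate 2. Its counts with age are therefore not against the mean of the young replicates. RPN4 in cth2Δ footprints turned to −0.35 under it (edgeR adjusted p = 0.0281). Its young footprints there were at 116 CPM in replicate 2 and 54.4 CPM in replicate 1, and other causes were not tested. For single genes, 333 values kept their side of the threshold, 10 passed it newly, 41 no longer passed it and 1 reversed. With 2 libraries per group, changes of several SEs can go uncalled, as for RPT6 in wild-type mRNA and PRE2 in wild-type footprints with age. An absence of calls therefore does not show an absence of change.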
